A study of Mus musculus with 16 samples.

Results

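Interferon-stimulated genes were followed in 16 RNA-seq libraries of mouse embryonic fibroblasts, which are connective tissue cells cultured from embryos, here of embryonic day 13.5 and the C57BL/6 strain. The genes came from a list of 39 symbols, of which 38 were found by symbol among the 23100 genes of the deposited count table. The symbol Ifi27 was not among them. Its NCBI gene ID carries the symbol Ifi27l1 in that table, and this gene is described apart and enters no count. All 38 genes passed the filter on low counts in every fit, though Iigp1, Gbp6, Oas2 and Mx2 had almost no counts outside the quiescent libraries. The cells were 2 mutant lines (Zac+/-) and 2 wildtype lines (Zac+/+). The titles of all mutant samples read KOpat, taken here to mean that the mutant allele came from the father. Zac1, now named Plagl1, encodes a zinc finger transcription factor. Every line was sampled on day 2 of culture, when the labels call it proliferative, and again on days 8, 10 and 12, when they call it quiescent. Both replicate 1 lines carry the letter I and both replicate 2 lines the letter L, and the labels do not explain these letters. The protocols name serum-containing medium and no interferon or other added agent for any group.

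Interferons are secreted proteins that cells release after sensing viral or misplaced nucleic acid. Type I interferons bind a receptor whose kinases activate Stat2, which acts with Irf9 in a complex that binds the interferon-stimulated response element, a short promoter sequence. Interferon gamma acts through another short element, the gamma-activated sequence. The genes switched on in this way encode nucleic acid sensors, factors of the same signalling route, proteins that bind or destroy foreign RNA, guanosine triphosphatases (GTPases) that attack vacuoles holding microbes, and the machinery of antigen presentation. Fibroblasts can make type I interferon and answer it, and many of these genes have a low basal level without any infection.

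Libraries held 28079241 to 61039793 counts, and levels are given as CPM, counts scaled to a common library size, with TMM factors that correct for library composition. Factors were set apart for summed and for single libraries, so a day 2 level differs slightly between the comparisons of states and of days. CPM is not corrected for gene length, so levels are compared between samples and not between genes. The counts of days 8, 10 and 12 of a line were summed for comparisons of states and genotypes, so that the line was the replicate. Each p rests on 2 lines per group, whose spread may be partly technical. An exact permutation of 2 lines against 2 cannot go below a two-sided p of 0.333, so the calls below rest on a spread that edgeR's quasi-likelihood test shares across genes. A gene was called at a Benjamini-Hochberg adjusted p under 0.05 over all genes tested. As a check of the labels, Plagl1 had 47.4 and 51.5 CPM in the quiescent mutant lines, against 201 and 163 CPM in the quiescent wildtype lines. It had 9.05 and 7.56 CPM in the proliferative mutant lines, against 44.7 and 37.4 CPM in the proliferative wildtype lines. The 10 listed fibroblast markers summed to 47200 to 66600 CPM in the quiescent libraries, against 22900 to 25500 CPM in the proliferative ones, and none was at 0. The markers did not all move with this sum, since Thy1, Vim and S100a4 were lower at quiescence in each line.

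Most interferon-stimulated genes were higher in quiescent than in proliferative cells of both genotypes. In mutant lines 33 of 38 rose and 0 fell, where 21.1% of all 15740 genes tested were called higher and 21% lower. In wildtype lines 33 of 38 rose and 0 fell, where 23.9% of all genes were called higher and 23.7% lower. The median log2 fold change of the 38 genes was 2.35 in mutant and 2.35 in wildtype lines, against 0.05 over all genes in each. The same 32 genes were called in both genotypes. The share of all genes called higher in both cannot exceed the 21.1% called higher in mutant lines. Among the 32 are Iigp1, Gbp6, Oas2 and Mx2, which had almost no counts in proliferation. These passed the filter mainly through their quiescent libraries and could hardly be called lower, so their calls add no support. By plain order, 35 of 38 (92.1%) were higher at quiescence in all 4 lines, against 37.1% of all genes, and the exceptions were Ifit2 (0 lines), Oasl1 (2 lines) and Irgm1 (3 lines). Dhx58 was called in mutant lines and had an edgeR adjusted p of 0.0569 in wildtype lines. Trim25 was called in wildtype lines and had an edgeR adjusted p of 0.0502 in mutant lines. With the line as a block, 34 genes were called in each genotype, Trim25 being added in mutant and Dhx58 in wildtype lines. Without mutant replicate 1, 29 were called in mutant lines, all higher, with Dhx58, Oas2, Cmpk2, Psmb8 and Psmb9 lost and Irgm1 gained. Without mutant replicate 2, 31 were called higher and 1 lower there, with Dhx58, Rsad2 and Ifi35 lost, Trim25 gained and Ifit2 gained as lower. In wildtype lines Ifit2 was likewise called lower when either mutant line was left out. Without wildtype replicate 1, 28 were called in wildtype lines, with Trim25, Rsad2, Ifi35, Psmb8 and Psmb9 lost, and without wildtype replicate 2, 31 were called, with Trim25, Cmpk2 and Ifi35 lost and Dhx58 gained.

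**Figure D1:**
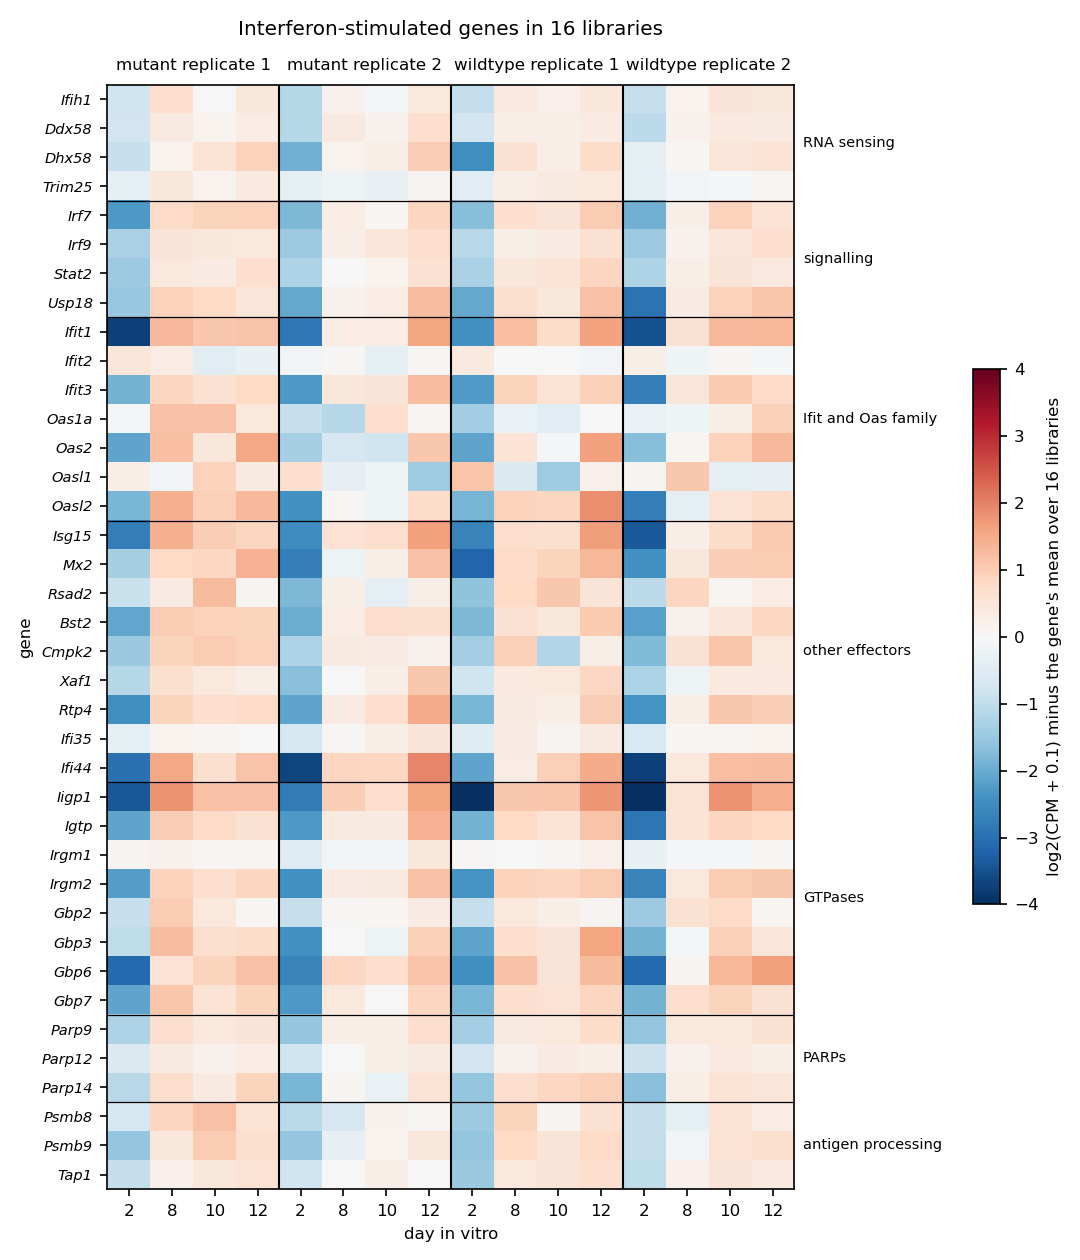
Level of each of the 38 genes in each of the 16 libraries, as log2(CPM + 0.1) minus the mean of that gene over the 16 libraries (colour), with genes down the page by role and the libraries of each line in order of day. Day 2 is the lowest day of all 4 lines for 34 of the 38 genes, and Ifit2, Oas1a, Oasl1 and Irgm1 are the rows without that pattern.

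The promoters of these genes are shown because the genes moved together and a known element is read by the factors of the pathway. RefSeq promoter windows of the GRCm38.p6 build, 250 bases before to 50 bases after each start, were matched by NCBI gene ID for 29 of the 38 genes. The counts themselves were made on the mm9 build, per the submitters' processing notes, so these coordinates are those of the sequence table alone. The core of the interferon-stimulated response element was searched as GAAA, any 2 bases, then GAAA on both strands, and 15 of the 29 genes (51.7%) held it in a window. Of the 17539 genes of the count table that have a window, 3.93% held it, as did 3.44% of all 32851 windows. The gamma-activated sequence was searched as TTC, any 3 bases, then GAA, which reads the same on both strands, and 8 of the 29 genes (27.6%) held it, against 9.1% of the table's genes and 8.3% of all windows. Both were present in 1 window for 5 genes, Oas1a, Bst2, Igtp, Irgm2 and Gbp7. Bst2 holds 2 overlapping matches of the response element, and the one further from the start shares the letters GAA with the gamma-activated match. A match is a run of letters and not a shown binding site.

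The stretches below give, for genes of each pattern of change, the match nearest to the start whose flanks of 10 bases lie before the start, read in the direction of the gene, with the core of the response element in capitals, which reads TTTC, 2 bases, TTTC where the match lies on the opposite strand. Isg15 (chr4:156200865-156200894, minus strand) holds 3 overlapping matches, the nearest of which begins 66 bases before the start. Ifit1 (chr19:34640794-34640823, plus strand, 85 bases before), Ifit3 (chr19:34583397-34583426, plus strand, 122 bases before), Bst2 (chr8:71537577-71537606, minus strand, 124 bases before) and Stat2 (chr10:128270266-128270295, plus strand, 222 bases before) also rose in both genotypes. Igtp (chr11:58199512-58199541, plus strand, 34 bases before) and Irgm2 (chr11:58214903-58214932, plus strand, 64 bases before) are neighbouring GTPase genes. Irgm1 (chr11:48871425-48871454, minus strand, 24 bases before) and Oas1a (chr5:120907526-120907555, minus strand, 20 bases before) hold the core and were not called in either genotype. A further match in Oas1a begins 14 bases before the start, within the printed stretch, and overlaps the one in capitals. Likewise, further matches begin 130 bases before the start in Bst2 and 30 bases before it in Irgm1, each overlapping the capitals within the printed stretch.
Isg15: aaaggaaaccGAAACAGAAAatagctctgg
Ifit1: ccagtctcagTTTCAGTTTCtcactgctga
Ifit3: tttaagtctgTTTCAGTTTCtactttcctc
Bst2: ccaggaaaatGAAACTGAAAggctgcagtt
Stat2: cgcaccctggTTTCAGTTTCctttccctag
Igtp: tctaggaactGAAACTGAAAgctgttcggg
Irgm2: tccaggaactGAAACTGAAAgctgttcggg
Irgm1: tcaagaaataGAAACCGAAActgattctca
Oas1a: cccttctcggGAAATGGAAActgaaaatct
The Igtp and Irgm2 stretches share 29 of 30 bases and differ by T3C, with the Igtp base first and positions counted from 1 at the left end of the printed stretch. When the windows of both genes are aligned on this stretch, 184 of 270 bases (68.1%) are identical. Of the 15 genes with the core, 13 rose in both genotypes, the exceptions being Oas1a and Irgm1. Of the 14 genes whose window lacks these letters, 11 rose in both genotypes, the exceptions being Trim25, Ifit2 and Oasl1. Of the 9 genes with no window in the table, 8 rose in both. The share of all genes tested that were called higher in both genotypes cannot exceed 21.1%, the share called higher in mutant lines.

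Among the sensors, Ifih1 (MDA5) and Ddx58 (RIG-I) are helicases that detect double-stranded viral RNA. Ddx58 had 58.2 and 62.5 CPM in the quiescent mutant lines and 58.8 and 59.9 CPM in the quiescent wildtype lines, against 28.5 and 21.9 CPM in the proliferative mutant lines and 28.6 and 23.2 CPM in the proliferative wildtype lines. Every quiescent value lay above every proliferative one, and the quiescent lines were closer to each other than the proliferative lines. On the log2 scale Ddx58 rose by 1.27 (SE 0.15, edgeR adjusted p = 0.000135) in mutant and 1.20 (SE 0.15, edgeR adjusted p = 0.000143) in wildtype lines. Ifih1 had 10.1 and 8.56 CPM in quiescent mutant lines and 9.92 and 9.91 CPM in quiescent wildtype lines, against 4.38 and 3.46 CPM in proliferative mutant lines and 3.87 and 3.97 CPM in proliferative wildtype lines. Its groups did not overlap either, with log2 fold changes of 1.26 (SE 0.19) in mutant and 1.34 (SE 0.19) in wildtype lines, both called. Dhx58 (LGP2), a helicase that tunes the other sensors, had 3.40 and 3.23 CPM in quiescent mutant lines and 3.57 and 3.10 CPM in quiescent wildtype lines, against 1.19 and 0.562 CPM in proliferative mutant lines and 0.351 and 1.78 CPM in proliferative wildtype lines. Its quiescent values were close together and its proliferative ones spread, with log2 values of 1.96 (SE 0.63) in mutant and 1.60 (SE 0.60) in wildtype lines. Trim25, a ubiquitin ligase known to act on RIG-I, had 56.3 and 40.2 CPM in quiescent mutant lines and 57.6 and 43.9 CPM in quiescent wildtype lines, against 34.6 and 34.5 CPM in proliferative mutant lines and 33.2 and 34.6 CPM in proliferative wildtype lines. Here the proliferative lines were alike and the quiescent lines split by replicate number, and the log2 values were 0.48 (SE 0.17) in mutant and 0.58 (SE 0.17) in wildtype lines.

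All 4 signalling genes rose in both genotypes. Stat2 and Irf9 are subunits of the complex that binds the response element, and Stat2 had 52.9 and 45.7 CPM in quiescent mutant lines and 60.3 and 50.5 CPM in quiescent wildtype lines, against 14.0 and 16.6 CPM in proliferative mutant lines and 15.6 and 16.3 CPM in proliferative wildtype lines. It rose by 1.68 (SE 0.14, edgeR adjusted p = 1.73e-05) in mutant and 1.79 (SE 0.14, edgeR adjusted p = 8.90e-06) in wildtype lines on the log2 scale, with no overlap between the states. Irf9 had 39.6 and 39.3 CPM in quiescent mutant lines and 37.5 and 38.7 CPM in quiescent wildtype lines, against 11.4 and 10.4 CPM in proliferative mutant lines and 12.9 and 10.2 CPM in proliferative wildtype lines. The 4 quiescent values differed by little, and the log2 fold changes were 1.86 (SE 0.14) in mutant and 1.73 (SE 0.14) in wildtype lines. Irf7, which drives further interferon transcription, rose by 2.77 (SE 0.29) in mutant and 2.60 (SE 0.28) in wildtype lines on the log2 scale. Usp18, which removes Isg15 from proteins and damps the receptor, rose by 2.60 (SE 0.37) in mutant and 3.57 (SE 0.39) in wildtype lines.

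The Ifit and Oas families, whose products bind or help destroy foreign RNA, held both large changes and 3 of the 4 genes that were not called in either genotype. Ifit1, which binds RNA lacking the host's cap marks, had 12.6 and 9.21 CPM in quiescent mutant lines and 13.3 and 12.1 CPM in quiescent wildtype lines, against 0.326 and 0.671 CPM in proliferative mutant lines and 0.937 and 0.402 CPM in proliferative wildtype lines. On the log2 scale Ifit1 rose by 4.36 (SE 0.41, edgeR adjusted p = 4.65e-05) in mutant and 4.32 (SE 0.40, edgeR adjusted p = 3.39e-05) in wildtype lines, and the states were far apart in every line. Ifit3, a relative of Ifit1, had 8.87 and 8.53 CPM in quiescent mutant lines and 9.39 and 9.09 CPM in quiescent wildtype lines, against 1.34 and 0.997 CPM in proliferative mutant lines and 0.996 and 0.704 CPM in proliferative wildtype lines. It rose by 2.92 (SE 0.25) in mutant and 3.46 (SE 0.25) in wildtype lines on the log2 scale. Ifit2, of the same family, went the other way, with 25.2 and 24.7 CPM in quiescent mutant lines and 25.4 and 25.1 CPM in quiescent wildtype lines, against 37.4 and 24.7 CPM in proliferative mutant lines and 34.4 and 31.3 CPM in proliferative wildtype lines. The 4 quiescent values were nearly equal and the proliferative ones were spread. Its log2 values of -0.31 (SE 0.17) in mutant and -0.38 (SE 0.17) in wildtype lines were not called. Averaged over genotypes Ifit2 had -0.34 (SE 0.12, edgeR adjusted p = 0.0328), a call, and 28.5% of all genes were called lower in that average.

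Oas2, an enzyme that makes the adenylate chains that switch on RNase L, rose by 3.58 (SE 0.95) in mutant lines on the log2 scale. In wildtype lines it had 227 counts at quiescence and 2 counts in proliferation, a CPM ratio of 32.9 with a 95% counting interval of 9 to 273, which covers counting error only. Oasl2, a related protein, had 7.0 and 3.34 CPM in quiescent mutant lines and 7.49 and 3.85 CPM in quiescent wildtype lines, against 0.760 and 0.471 CPM in proliferative mutant lines and 0.732 and 0.352 CPM in proliferative wildtype lines. In both states the replicate 1 line of each genotype was the higher one, and the gene rose by 3.11 (SE 0.54) in mutant and 3.44 (SE 0.55) in wildtype lines. Oas1a stayed between 0 and 0.490 CPM and Oasl1 between 0 and 0.476 CPM in all 16 libraries, and neither was called, with SEs of 0.80 to 1.11 on the log2 scale. Reads of the Ifit, Oas, Irgm and Gbp families can be split between close copies, so levels of their members are uncertain to that extent.

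Among the other effectors all 9 measured genes rose in both genotypes. Isg15, a ubiquitin-like protein attached to other proteins, had 31.3 and 27.5 CPM in quiescent mutant lines and 31.0 and 23.1 CPM in quiescent wildtype lines, against 1.95 and 2.37 CPM in proliferative mutant lines and 2.11 and 1.27 CPM in proliferative wildtype lines. This was a 13.4-fold rise in mutant lines (log2 3.75, SE 0.25, edgeR adjusted p = 5.76e-06) and a 16.4-fold rise in wildtype lines (log2 4.04, SE 0.26, edgeR adjusted p = 2.98e-06). Bst2 (tetherin), which holds budding virus at the cell surface, had 54.3 and 41.2 CPM in quiescent mutant lines and 47.4 and 40.2 CPM in quiescent wildtype lines, against 6.52 and 7.05 CPM in proliferative mutant lines and 8.03 and 6.15 CPM in proliferative wildtype lines. Its states did not overlap, and the log2 fold changes were 2.81 (SE 0.19) in mutant and 2.64 (SE 0.18) in wildtype lines. Rsad2 (viperin) and Cmpk2, a pair of neighbouring genes for an antiviral radical enzyme and a nucleotide kinase, rose by 2.30 (SE 0.63) and 2.41 (SE 0.50) in mutant lines and by 2.39 (SE 0.61) and 2.65 (SE 0.51) in wildtype lines. Mx2, a dynamin-like GTPase, rose by 3.46 (SE 0.79) in mutant and 5.27 (SE 0.89) in wildtype lines, from proliferative levels of at most 0.253 CPM. Ifi44 rose by 5.04 (SE 0.57) in mutant and 4.13 (SE 0.53) in wildtype lines, Rtp4 by 3.17 (SE 0.26) in mutant and 2.92 (SE 0.26) in wildtype lines, Xaf1, a partner of an apoptosis inhibitor, by 1.90 (SE 0.26) in mutant and 1.46 (SE 0.25) in wildtype lines, and Ifi35 by 0.70 (SE 0.16) in mutant and 0.74 (SE 0.16) in wildtype lines. Ifi27l1, the gene under the NCBI ID of Ifi27, had 110 and 149 CPM in quiescent mutant lines and 111 and 128 CPM in quiescent wildtype lines, against 12.1 and 17.7 CPM in proliferative mutant lines and 14.6 and 15.8 CPM in proliferative wildtype lines. It was called higher in both genotypes as well, at 3.10 (SE 0.21) in mutant and 2.97 (SE 0.21) in wildtype lines.

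The GTPases act on vacuoles that hold microbes, and 7 of 8 rose in both genotypes. Irgm2, a regulator of the family, had 18.8 and 16.3 CPM in quiescent mutant lines and 20.8 and 19.7 CPM in quiescent wildtype lines, against 2.28 and 1.94 CPM in proliferative mutant lines and 2.02 and 1.59 CPM in proliferative wildtype lines. On the log2 scale Irgm2 rose by 3.07 (SE 0.19, edgeR adjusted p = 3.59e-06) in mutant and 3.50 (SE 0.19, edgeR adjusted p = 1.59e-06) in wildtype lines. Irgm1, another regulator, had 66.6 and 64.3 CPM in quiescent mutant lines and 65.8 and 60.8 CPM in quiescent wildtype lines, against 67.5 and 44.0 CPM in proliferative mutant lines and 63.3 and 50.5 CPM in proliferative wildtype lines. Its states overlapped, and the log2 values of 0.24 (SE 0.19) in mutant and 0.16 (SE 0.19) in wildtype lines were not called. Igtp, an effector of the family, rose by 3.14 (SE 0.35) in mutant and 3.37 (SE 0.35) in wildtype lines. Iigp1 had 5.90 and 4.54 CPM in quiescent mutant lines and 5.63 and 5.56 CPM in quiescent wildtype lines, against 0.109 and 0.218 CPM in proliferative mutant lines and 0 counts in both proliferative wildtype lines. It rose by 4.89 (SE 0.38) in mutant lines and was at least 175-fold higher at quiescence in wildtype lines, with the bound taken from 3 counts over the group. Gbp6 had 2 counts in the proliferative lines of each genotype, and its CPM ratio was 60.6 (95% counting interval 16.7 to 502) in mutant and 82.3 (22.7 to 681) in wildtype lines. Gbp2, Gbp3 and Gbp7, other guanylate binding proteins, rose by 1.36 (SE 0.24), 2.40 (SE 0.50) and 3.04 (SE 0.27) in mutant lines and by 1.60 (SE 0.24), 3.02 (SE 0.51) and 2.70 (SE 0.26) in wildtype lines.

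The 3 ADP-ribosyltransferases rose in both genotypes. Parp9 had 23.3 and 20.5 CPM in quiescent mutant lines and 23 and 22.1 CPM in quiescent wildtype lines, against 6.73 and 5.37 CPM in proliferative mutant lines and 6.12 and 5.25 CPM in proliferative wildtype lines, a log2 fold change of 1.86 (SE 0.16) in mutant and 1.99 (SE 0.16) in wildtype lines. Parp12 had 23.5 and 21.9 CPM in quiescent mutant lines and 23.1 and 23.6 CPM in quiescent wildtype lines, against 13.0 and 11.2 CPM in proliferative mutant lines and 11.2 and 10.6 CPM in proliferative wildtype lines. Its states did not overlap, and it rose by 0.91 (SE 0.13) in mutant and 1.10 (SE 0.13) in wildtype lines on the log2 scale. Parp14 rose by 1.88 (SE 0.30) in mutant and 2.32 (SE 0.31) in wildtype lines. The antigen processing genes Psmb8 and Psmb9, subunits of the immunoproteasome, and Tap1, part of the peptide transporter, rose as well. Tap1 had 21.5 and 17.6 CPM in quiescent mutant lines and 24 and 21.1 CPM in quiescent wildtype lines, against 8.51 and 9.50 CPM in proliferative mutant lines and 5.77 and 8.13 CPM in proliferative wildtype lines. The log2 values for Tap1 were 1.12 (SE 0.19) in mutant and 1.69 (SE 0.19) in wildtype lines. Psmb9 had 1.11 and 0.659 CPM in quiescent mutant lines and 1.08 and 0.854 CPM in quiescent wildtype lines, against 0.145 and 0.145 CPM in proliferative mutant lines and 0.146 and 0.268 CPM in proliferative wildtype lines. Its log2 values of 2.60 (SE 0.55) in mutant and 2.17 (SE 0.51) in wildtype lines and those of Psmb8, 1.50 (SE 0.45) in mutant and 1.72 (SE 0.45) in wildtype lines, were called with all lines and lost as given above.

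**Figure D2:**
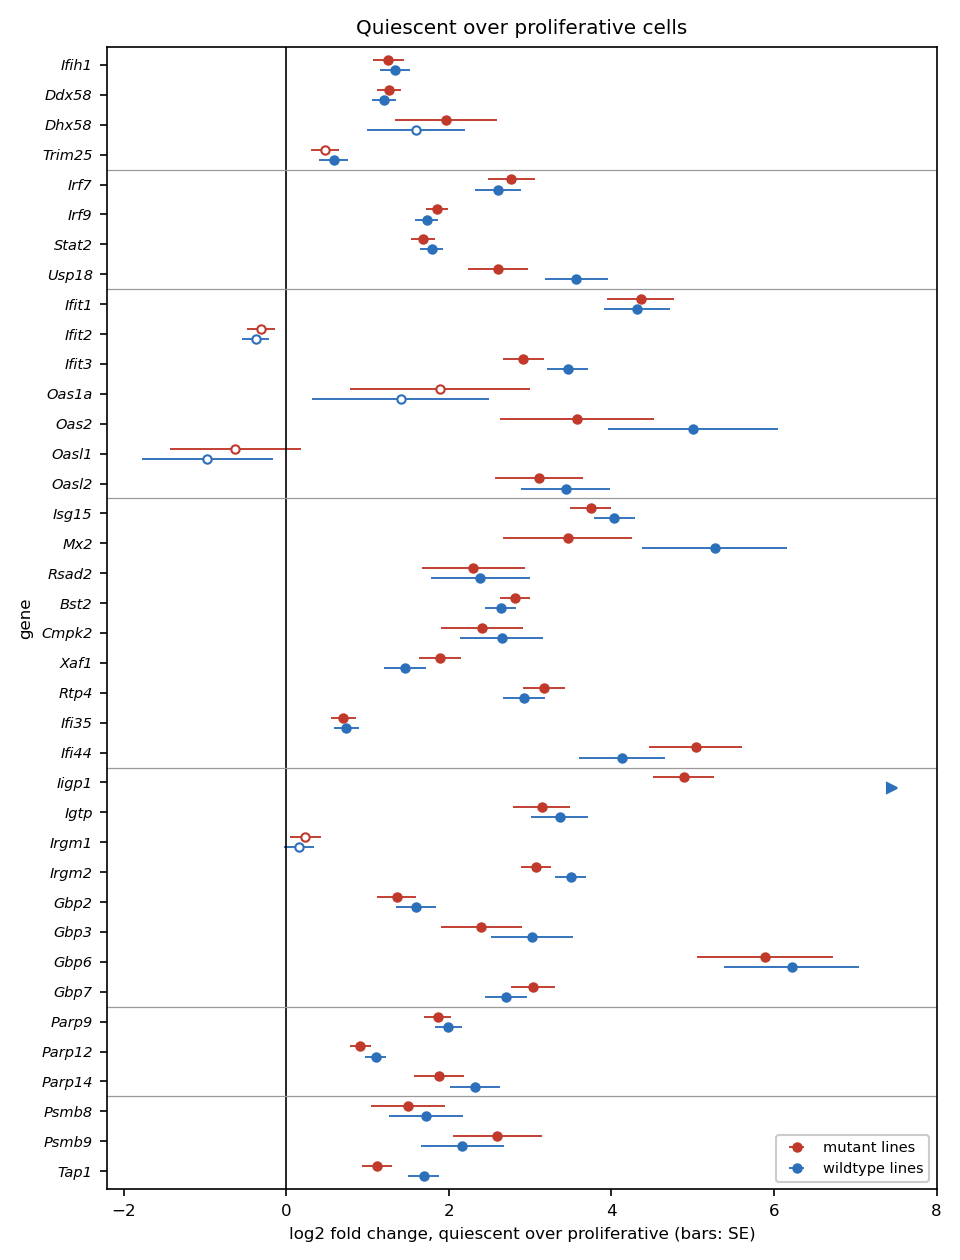
Log2 fold change of quiescent over proliferative cells for each of the 38 genes, with mutant lines (red) above wildtype lines (blue), bars of 1 SE, filled points for an edgeR adjusted p under 0.05 and open points otherwise. The wildtype triangle of Iigp1 marks the lower bound of 175-fold, and the open pairs in both genotypes are Ifit2, Oas1a, Oasl1 and Irgm1.

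The wider pathway was described with 131 further symbols, of which 100 were tested. In mutant lines 51 rose and 8 fell between the states, where 21.1% of all genes were called higher and 21% lower. In wildtype lines 53 rose and 8 fell, where 23.9% of all genes were called higher and 23.7% lower. The ligands were almost absent. Of 19 interferon genes in the table, 16 had 0 counts in all 16 libraries, among them Ifnb1 and Ifng. Against 786061588 counts in all libraries, Ifnab had 3, Ifne 9 and Ifnz 136 counts. Ifnz, a gene of the type I cluster, stayed between 0 and 0.422 CPM. Of the receptors and kinases, averaged over genotypes, 4 of 9 rose and 1 fell, with 30.9% of all genes called higher in that average. The type I receptor chain Ifnar1 had 98.1 and 96.1 CPM in quiescent mutant lines and 102 and 95.5 CPM in quiescent wildtype lines, against 81.4 and 80.7 CPM in proliferative mutant lines and 78.0 and 74.8 CPM in proliferative wildtype lines. That was a small rise without overlap, at 0.26 (SE 0.09) in mutant and 0.37 (SE 0.09) in wildtype lines. Of the other factors and inhibitors 6 of 13 rose and 2 fell.

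Of the genes that act upstream of interferon production 7 of 20 rose and 6 fell in the same average, shares near the 30.9% and 28.5% of all genes called higher and lower. The kinase Ikbke rose by 0.90 (SE 0.14) in mutant and 1.21 (SE 0.14) in wildtype lines on the log2 scale. Samhd1 and Rnaseh2a, which degrade nucleotides and RNA paired with DNA, had log2 values of -0.62 (SE 0.10) and -1.36 (SE 0.12) in mutant lines and -0.65 (SE 0.10) and -1.41 (SE 0.12) in wildtype lines, all called lower. Other known interferon-stimulated genes, outside the 38, rose for 32 of 44 and fell for 2, Pml and Slfn9. Lgals3bp, a secreted glycoprotein, had 137 and 113 CPM in quiescent mutant lines and 125 and 118 CPM in quiescent wildtype lines, against 14.9 and 17.2 CPM in proliferative mutant lines and 14.1 and 12.5 CPM in proliferative wildtype lines. Like it, the membrane protein Ifitm3 and the ADP-ribosyltransferase Parp10 rose in both genotypes, by 1.59 (SE 0.12) and 2.61 (SE 0.22) in mutant and 1.51 (SE 0.12) and 3.06 (SE 0.22) in wildtype lines.

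In bulk RNA, fewer cells of a type and less RNA per cell cannot be told apart, and markers of other cells were measured beside these genes. Of 15 tested macrophage and blood markers, 1 rose between the states averaged over genotypes, Cd74, and 0 fell. Of all genes, 30.9% were called higher and 28.5% lower in that average. The markers had a median log2 value of 1.70 with a wide spread between lines, so few calls do not show a steady level. Their summed level was 14.5 to 506 CPM in the quiescent mutant libraries and 33.3 to 278 CPM in the quiescent wildtype libraries, against 16.2 and 117 CPM in the proliferative mutant libraries and 23 and 90.9 CPM in the proliferative wildtype libraries. The T cell marker Cd3e was at 0 in all 16 libraries, and 1 to 3 of the 18 listed markers were at 0 in each library. In mutant replicate 2 the marker sum was 14.5 CPM at day 8 and 16.2 CPM at day 2. In every other quiescent library the sum was higher than on day 2 of its line, and its part in the result was not tested. The 10 proliferation genes, such as Mki67, all fell in both genotypes.

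The change between states was set against genotype with an interaction term. No gene of 15740 was called (0%), and 0 of the 38 interferon-stimulated genes were called by edgeR or by DESeq2. At an unadjusted p under 0.05, 1 of the 38 passed in edgeR, against 1.68% of all genes. That gene was Iigp1, whose value rests on the 0 counts of the proliferative wildtype lines. The next smallest p values belonged to Tap1, with a difference of -0.57 (SE 0.26, edgeR adjusted p = 1) of the log2 changes, Usp18, with -0.97 (SE 0.52, edgeR adjusted p = 1), and Irgm2, with -0.43 (SE 0.25, edgeR adjusted p = 1).

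Genotypes were then compared within each state, to ask whether these genes differed between Zac1 mutant and wildtype cells. At quiescence 0 of 38 were called, against 0.00635% of all genes, which is Plagl1 alone. At an unadjusted p under 0.05 there were 0 of 38, against 0.483% of all genes, and DESeq2 called 0. Of the 38 values, 33 lay within 0.25 and 37 within 0.5 of 0 on the log2 scale, with a median of -0.05 and a median SE of 0.25. Below 0 lay 25 of 38 (65.8%), against 45.2% of all genes. Irgm2 had the smallest p, with 18.8 and 16.3 CPM in mutant and 20.8 and 19.7 CPM in wildtype lines. Those lines did not overlap, and the difference was -0.20 (SE 0.16, edgeR adjusted p = 1). Stat2, Tap1 and Parp14 followed at -0.17 (SE 0.14), -0.20 (SE 0.18) and -0.26 (SE 0.28), each with overlapping lines. Parp14 had 8.46 and 5.89 CPM in mutant lines, against 9.76 and 7.40 CPM in wildtype lines.

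In proliferative cells 0 of 38 were called, again against 0.00635% of all genes, and DESeq2 called 0. At an unadjusted p under 0.05 there was 1, against 2.87% of all genes. It was Iigp1, with 15 counts in the mutant lines and 0 counts in the wildtype lines. It was at least 5.66-fold higher in mutant cells by the bound of 3 counts over the group, and the edgeR adjusted p was 1. This bound covers neither counting error in mutant replicates 1 and 2 (3 and 12 counts) nor the spread between lines. Usp18 had 0.941 and 0.616 CPM in mutant lines, against 0.615 and 0.285 CPM in wildtype lines, a difference of 0.82 (SE 0.40, edgeR adjusted p = 1). Tap1 had 8.51 and 9.50 CPM in mutant lines, against 5.77 and 8.13 CPM in wildtype lines, a difference of 0.37 (SE 0.19). Ifit3 had 1.34 and 0.997 CPM in mutant lines, against 0.996 and 0.704 CPM in wildtype lines, a difference of 0.46 (SE 0.26). None of these 3 was called, and the 38 genes had a median of 0.05 with 21 values within 0.25 and 32 within 0.5 of 0.

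**Figure D3:**
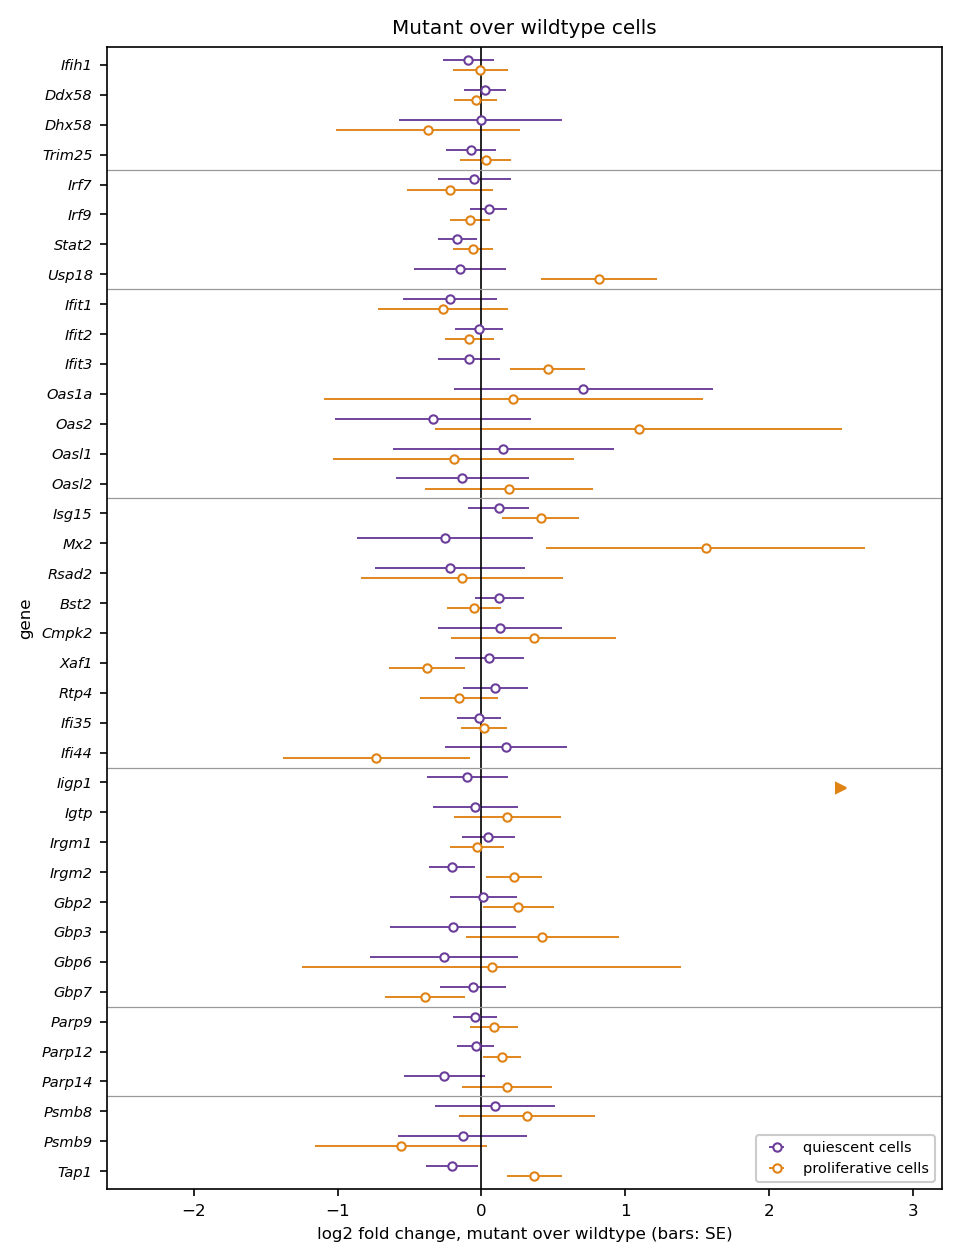
Log2 fold change of mutant over wildtype cells for each of the 38 genes, at quiescence (purple, upper point) and in proliferation (orange, lower point), with bars of 1 SE and open points because none was called. Most quiescent points lie within 0.25 of 0, and the triangle of Iigp1 marks its lower bound of 5.66-fold in proliferative cells.

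Within single days, 0 of the 38 genes were called between genotypes on days 2, 8, 10 and 12 by edgeR or DESeq2, where 0.00648% of all 15439 genes were called on each day. Without adjustment, 1, 0, 1 and 0 of them passed p under 0.05 in edgeR, against 1.88%, 1.79%, 9.76% and 1.47% of all genes. On day 2 the gene was Iigp1, and Mx2 had 0.256 and 0.0364 CPM in mutant lines, against 0 and 0.0677 CPM in wildtype lines, with overlap. On day 10 the values leaned to lower in mutant cells, for 27 of 38 genes (71.1%), against 47.7% of all genes. The median log2 value of the 38 was -0.16, against 0.015 over all genes. Ifit2 had 19.9 and 20.3 CPM on day 10 in mutant lines, against 26.6 and 27.5 CPM in wildtype lines. These lines did not overlap, and the difference was -0.43 (SE 0.17, edgeR adjusted p = 0.487). Parp14 had 7.09 and 4.58 CPM in mutant lines, against 9.92 and 8.01 CPM in wildtype lines, and Ifih1 had 7.68 and 7.34 CPM in mutant lines, against 9 and 11 CPM in wildtype lines. Ifih1, Parp14 and Irgm2 had differences of -0.41 (SE 0.20), -0.62 (SE 0.31) and -0.43 (SE 0.22) on that day, also without overlap and without a call. They and Ifit2 were named for the smallest p of the day, so their lack of overlap adds no support for a difference. On day 8, 23 of 38 values (60.5%) lay above 0, against 48.6% of all genes. Ifi44 had 9.68 and 6.01 CPM on day 8 in mutant lines, against 4.02 and 4.46 CPM in wildtype lines, without overlap, and its difference of 0.89 (SE 0.43, edgeR adjusted p = 1) was not called. On day 12 the smallest p was that of Tap1, with 25 and 16.5 CPM in mutant lines, against 26.4 and 21.5 CPM in wildtype lines. The lines overlapped, and the difference was -0.21 (SE 0.20, edgeR adjusted p = 1). Ddx58, Bst2 and Irgm1 followed with 0.14 (SE 0.15), -0.18 (SE 0.21) and 0.15 (SE 0.19), all with overlapping lines.

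By day, most of these genes were already higher at the first quiescent harvest. Between day 8 and day 2, averaged over genotypes, 34 of 38 rose and 0 fell, with 28.1% of all genes called higher and 26.4% lower. Without mutant replicate 1, and likewise without wildtype replicate 1, 32 were called, with Trim25 and Psmb8 lost. Without mutant replicate 2 Dhx58 was lost and Ifit2, at a lower level on day 8, was gained. Isg15 had 1.97, 38.3, 28.0 and 25.5 CPM on days 2, 8, 10 and 12 in mutant replicate 1. It had 2.39, 21.2, 23.1 and 44.7 CPM in mutant replicate 2. The wildtype lines had 2.14, 23.3, 22.2 and 45.4 CPM in replicate 1 and 1.29, 17.1, 23.7 and 29.5 CPM in replicate 2. Day 2 was the lowest in each line, mutant replicate 1 peaked on day 8 and the other lines peaked on day 12. Irgm2 had 2.30, 20.5, 17.2 and 19.6 CPM in mutant replicate 1 and 1.95, 13.5, 13.9 and 24.7 CPM in mutant replicate 2. It had 2.05, 20.8, 19.9 and 22 CPM in wildtype replicate 1 and 1.61, 14.7, 21.8 and 23.2 CPM in wildtype replicate 2. The step between day 8 and day 2 was 3.15 (SE 0.18, edgeR adjusted p = 9.26e-09) for Irgm2, 1.64 (SE 0.10) for Irf9, 1.88 (SE 0.12) for Parp9 and 2.57 (SE 0.16) for Bst2, and the 4 lines of day 8 lay above the 4 lines of day 2 for each.

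Between the quiescent days 0 of 38 genes were called by edgeR or DESeq2, at day 10 over day 8 (0.0648% of all genes called), day 12 over day 10 (0.415%) and day 12 over day 8 (3.12%). Without adjustment, 0, 4 and 7 of them passed p under 0.05 in edgeR, against 10.4%, 12.3% and 14.2% of all genes. For day 12 over day 8, 33 of 38 values lay above 0 with a median of 0.31, while the median over all genes was close to 0. For day 10 over day 8 it was 20 of 38 (52.6%), against 51.6% of all genes. Irf9 had 38.8, 46.3, 43.6 and 45.4 CPM on day 12 in mutant replicates 1 and 2 and wildtype replicates 1 and 2, against 41.2, 34.7, 33.4 and 32.0 CPM on day 8. It was higher on day 12 in 3 of 4 lines, at 0.31 (SE 0.10, edgeR adjusted p = 0.130). Stat2 and Rtp4 had 0.36 (SE 0.12, edgeR adjusted p = 0.131) and 0.62 (SE 0.21, edgeR adjusted p = 0.169) for the same step. Isg15 had the smallest p for day 12 over day 10, at 0.58 (SE 0.24, edgeR adjusted p = 0.346), followed by Parp9. Parp9 had 23.2, 25.8, 26.8 and 24.5 CPM on day 12, against 21.4, 18.9, 21.5 and 21.5 CPM on day 10 in the same order of lines, without overlap, and its value of 0.27 (SE 0.12, edgeR adjusted p = 0.360) was not called. Mx2 was the 1 gene of the 38 with a higher level at each successive day in all 4 lines.

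The lines differed in the day on which the genes were highest. Each line has a single library per day, so a difference between lines cannot be told apart from one between single libraries. The 38 genes moved together and are not replicates of a line. Among the 3 quiescent days, mutant replicate 1 had its highest value on day 8 for 24 of 38 genes, where 34.6% of all genes did so in that line. Mutant replicate 2 had its highest value on day 12 for 30 of 38, and wildtype replicate 1 on day 12 for 31 of 38, with shares over all genes of 35.5% and 31.9%. Wildtype replicate 2 had it on day 10 for 17 and on day 12 for 19 genes. The difference of the day steps between genotypes, a test added after the data had been seen, was called for 0 genes of 15439 (0%). For day 10 over day 8, 2 of the 38 genes had an unadjusted p under 0.05 in edgeR, against 1346 of all 15439 genes, a larger share. For day 12 over day 10 and day 12 over day 8 it was 0 of 38, against 829 and 140 of all genes. Ifit2 had a difference of -0.71 (SE 0.25, edgeR adjusted p = 0.528) for day 10 over day 8.

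**Figure D4:**
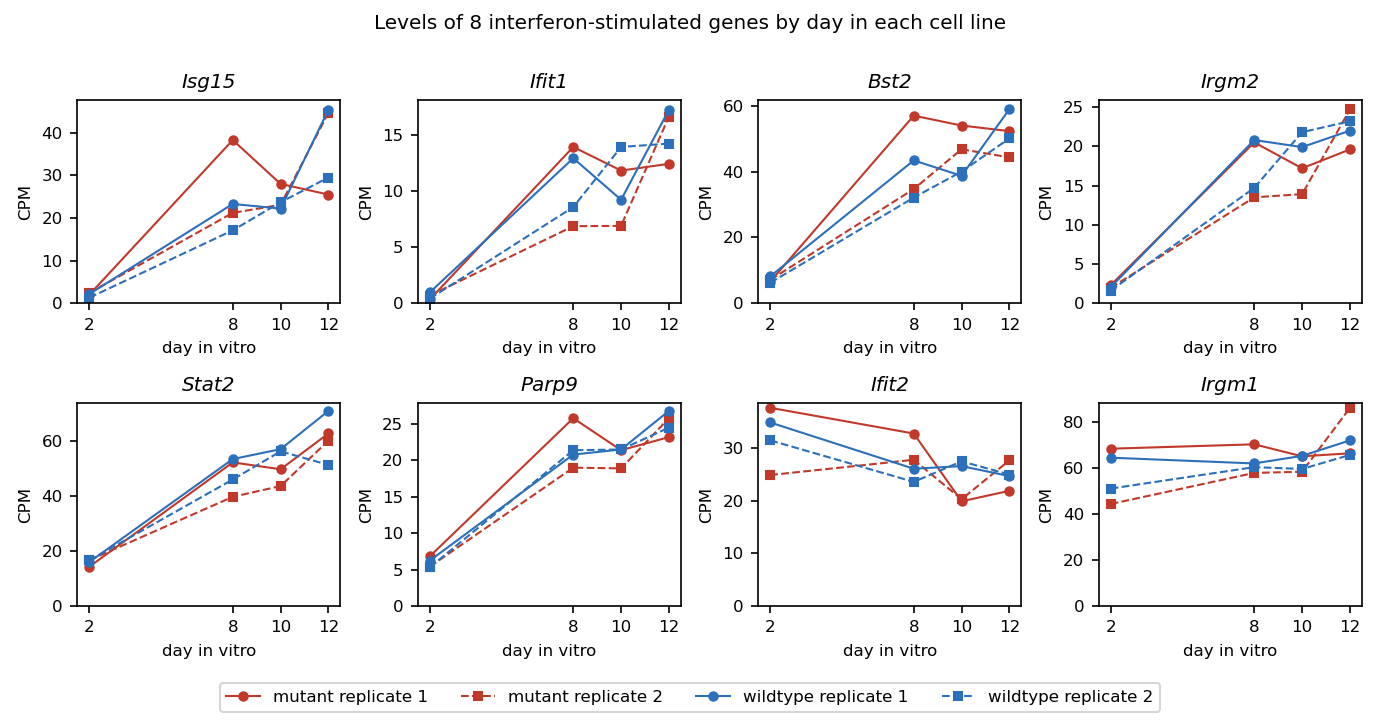
CPM (vertical axes, from 0) of 8 interferon-stimulated genes against day in vitro for the 2 mutant lines (red) and the 2 wildtype lines (blue), replicate 1 with solid and replicate 2 with dashed lines. Isg15, Ifit1, Bst2, Irgm2, Stat2 and Parp9 stand far higher on days 8 to 12 than on day 2 in each line, whereas Ifit2 and Irgm1 do not.

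Lines of one genotype also differed from each other. At quiescence mutant replicate 1 was the highest line for 16 genes and wildtype replicate 1 for 17, against 3 for mutant replicate 2 and 2 for wildtype replicate 2. In the same order, these lines were the highest for 20.3%, 27.6%, 36.6% and 15.4% of all genes. The lowest line was mutant replicate 2 for 25 of 38. The median ratio of the highest to the lowest line was 1.34 for the 38 genes and 1.21 over all genes. Set by letter, 33 of 38 genes (86.8%) were lower in the L than in the I lines at quiescence, against 47.3% of all genes. Of the 38, 1 was called lower, Trim25, and 0 higher, with 0.368% of all genes called lower and 0.152% higher. It had 40.2 and 43.9 CPM in the L lines (mutant and wildtype), against 56.3 and 57.6 CPM in the I lines, a difference of -0.44 (SE 0.08, edgeR adjusted p = 0.0351). Without any 1 of the 4 lines the call was lost, with 0 genes called each time. Oasl2 had 3.34 and 3.85 CPM in the L lines, against 7.0 and 7.49 CPM in the I lines, a difference of -1.01 (SE 0.20, edgeR adjusted p = 0.0561).

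In proliferative cells 28 of 38 genes were lower in the L lines and 3 were called lower and 0 higher, with 3.09% of all genes called lower and 3.28% higher. Irgm1 had 44.0 and 50.5 CPM in the L lines, against 67.5 and 63.3 CPM in the I lines, a difference of -0.47 (SE 0.08, edgeR adjusted p = 0.0236). Ifi44 had 0.163 and 0.151 CPM in the L lines, against 0.326 and 0.674 CPM in the I lines, a difference of -1.70 (SE 0.38, edgeR adjusted p = 0.0317). Ddx58 had 21.9 and 23.2 CPM in the L lines, against 28.5 and 28.6 CPM in the I lines, a difference of -0.34 (SE 0.08, edgeR adjusted p = 0.0317). None of these groups overlapped. Without mutant replicate 1, mutant replicate 2 or wildtype replicate 1 none of the 3 was called, and without wildtype replicate 2 Irgm1 kept its call and Ifit2 gained one. The macrophage marker sums are given for the same lines, and their part in the differences by letter was not tested. At quiescence they were 14.5 to 77.1 CPM in mutant replicate 2 and 128 to 278 CPM in wildtype replicate 2 (L), against 201 to 506 CPM in mutant replicate 1 and 33.3 to 84.4 CPM in wildtype replicate 1 (I).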

How the data were processed

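The data are whole-number counts of reads per gene, deposited by the authors without normalization. Per the labels' protocols, libraries were stranded and made from DNase-treated total RNA. Per the submitters' processing notes, bcl2fastq 2.18, TopHat2 2.1.1, Bowtie2 2.2.9, HTSeq 0.6.1p1 and the mm9 build were used. Neither the annotation nor the strand setting used with HTSeq is known from these sources, so overlapping antisense genes are uncertain.

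Here, counts were filtered (filterByExpr), scaled (TMM) and tested with edgeR 4.0.16 (R 4.3.3, quasi-likelihood, robust). State, genotype and letter comparisons used 8 summed libraries (15740 genes, 4 residual degrees of freedom). Day comparisons used 16 libraries (15439 genes, 8 residual degrees of freedom) and count repeat harvests of a line as independent. SEs were derived as |log2 fold change| divided by the root of the F statistic. Scripts were tested on simulated data. Chi-square per degree of freedom between libraries of a group was 34.1 to 73.1, so none was a copy. There were 0 columns of other samples.

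States and days are paired by line by design (correlation of deviations 0.248 in mutant and 0.196 in wildtype lines). Replicate numbers of different genotypes were not treated as paired in the main fits (correlation of deviations 0.0112 at quiescence, -0.0285 in proliferation). Lines of one number share a letter, and 1004 genes were called by letter in proliferation and 82 at quiescence. The correlations therefore do not show that such pairing was absent. Genes were named by rule: the 2 genes of each role with the smallest p between states and Isg15, the 4 with the smallest p in other comparisons, and up to 3 genes of each other list. A choice by small p favours groups that do not overlap, so lack of overlap in named genes adds no support. Genes outside this rule, Ifit2, Irgm1, Oasl2 and Ifi27l1 in the state comparison among them, were chosen after their values were seen. The genes and lists were chosen with earlier results of these data known. Alternatives were RLE scaling, DESeq2 1.42.0, other filters, left-out lines, single quiescent days, a replicate block (the line for states and days, the replicate number for genotypes, the genotype for letters) and the libraries of a comparison alone. Values of 1 gene of the wider pathway are not reported here.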

Additional observations from a re-analysis of the deposited data

How the results depend on the processing

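The number of these genes called between quiescent and proliferative cells, at most 1 of them lower, was 29 to 34 in mutant and 28 to 34 in wildtype lines over 12 alternatives each, and 32 to 34 for day 8 over day 2 over 9 alternatives. Without 1 line these were 29 to 33, 28 to 34 and 32 to 34. All genotype comparisons, the interaction and the steps between quiescent days had 0 calls under each alternative run. The letter comparison was the least stable. At quiescence it had 2 calls with DESeq2 and 2 with no filter on low counts, 0 to 0 without 1 line, and 0 with day 10 alone, with day 12 alone and with its own libraries alone. In proliferation it had 0 to 2 calls without 1 line and 1 with its own libraries alone. The cause was not tested. Signs turned for uncalled genotype differences: Mx2 on day 2 without mutant replicate 1 (-0.14), Tap1 (0.079), Ddx58 (-0.041) and Irgm1 (-0.034) on day 12 without mutant replicate 2, and Stat2 at quiescence with day 12 alone (0.0081). Leaving out 1 line gave -0.14 to 5.58 for Mx2, whose fitted values rest on few counts, -0.57 to 0.079 for Tap1, -0.041 to 0.28 for Ddx58 and -0.034 to 0.29 for Irgm1. With the replicate block, 34 genes were called between states in each genotype and 34 for day 8 over day 2, and 0 between genotypes. The block was the line for states and days and the replicate number for genotypes. The letters coincide with the replicate numbers, so genotype was the term there, with 1 call at quiescence and 3 in proliferation. Genes with few counts in proliferation (Iigp1, Gbp6, Oas2, Mx2, Oas1a, Oasl1) are limited by depth, and 2 lines per genotype limit all comparisons of genotypes.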

Other observations

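The genes of major histocompatibility complex class I presentation outside the 38 had log2 values above 0 between quiescent and proliferative cells for 13 of 13 tested, and 10 of 13 rose and 0 fell averaged over genotypes, with 30.9% of all genes called higher. Tapbp, which loads peptides onto class I molecules, had 94.7 and 91.2 CPM in quiescent mutant lines and 88.9 and 95.7 CPM in quiescent wildtype lines, against 27.8 and 37.3 CPM in proliferative mutant lines and 27.2 and 33.4 CPM in proliferative wildtype lines. H2-T23, a class I molecule, had 14.2 and 11.5 CPM in quiescent mutant lines and 13.2 and 13.3 CPM in quiescent wildtype lines, against 3.76 and 3.81 CPM in proliferative mutant lines and 3.10 and 4.36 CPM in proliferative wildtype lines. Tap2, the partner of Tap1, had 19.1 and 17.2 CPM in quiescent mutant lines and 18.0 and 18.2 CPM in quiescent wildtype lines, against 5.29 and 7.94 CPM in proliferative mutant lines and 5.18 and 5.22 CPM in proliferative wildtype lines. None of the 3 had overlapping states, and each rose in both genotypes in edgeR's test.

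Targets of NF-kB, another inflammatory route, had 4 of 17 called higher and 5 called lower at quiescence averaged over genotypes, near the shares of all genes (30.9% higher and 28.5% lower), and a median log2 value of -0.20. Icam1, an adhesion molecule, had 16.1 and 12.4 CPM in quiescent mutant lines and 19.3 and 12.8 CPM in quiescent wildtype lines, against 3.15 and 4.28 CPM in proliferative mutant lines and 2.84 and 2.40 CPM in proliferative wildtype lines. Ptgs2, the inducible prostaglandin synthase, had 114 and 141 CPM in quiescent mutant lines and 95.1 and 134 CPM in quiescent wildtype lines, against 926 and 558 CPM in proliferative mutant lines and 924 and 755 CPM in proliferative wildtype lines. Tnfaip3, an inhibitor of the route, likewise fell, by 2.36 (SE 0.23) in mutant and by 2.29 (SE 0.23) in wildtype lines on the log2 scale.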
